A study of Mus musculus with 6 samples.

Results

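Trp53 encodes p53, the transcription factor that answers DNA damage and other stress. Its RNA and the RNAs of 9 genes that p53 is known to switch on directly were followed through 6 mouse RNA-Seq libraries. The 10 genes (Trp53, Mdm2, Cdkn1a, Ccng1, Bax, Bbc3, Perp, Trp53inp1, Sesn1 and Zmat3) were chosen by symbol out of 30281 symbols, and 35 of the 88198 deposited transcripts carry one of them. All 10 passed the filters used below, 1 TPM (a library's share of transcripts, corrected for length) in at least 1 library for the comparisons without a test and the edgeR count filter for rapamycin.

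There was 1 library for each condition. The mouse embryonic fibroblasts (MEFs) were Tsc2+/+ p53-/- or Tsc2-/- p53-/-, so both carry the p53 label and they differ in Tsc2. Their treatment is given as none, and they came to the study from another laboratory. MKOC and TJ are lines of kidney epithelial cells labelled Tsc2-null, TJ being tumor-derived from a secondary tumor in C57BL6 mice. Each kidney line was left untreated or given 100 nM rapamycin, the inhibitor of mTOR complex 1, for 18 hr in medium without serum. The labels give no p53 genotype for the kidney lines and do not say which part of Trp53 the p53-/- MEFs lack. The libraries hold no repeat cultures, so differences between the MEFs, and between MEFs and kidney lines, are described without a test. For rapamycin the 2 lines served as replicates, with line as covariate. The p-values thus rest on how far the responses of these 2 lines differ, a spread estimated with help from all genes.

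In cells with p53, stress keeps the protein from being degraded, and it then binds DNA beside its target genes. Mdm2 is both a target and the ubiquitin ligase that removes p53, which closes a feedback loop. Cdkn1a (p21) inhibits cyclin-dependent kinases and halts the cell cycle, Ccng1 is cyclin G1, Bax and Bbc3 (PUMA) promote apoptosis at the mitochondrion, and Perp is a membrane protein of cell junctions. Trp53inp1 is a nuclear stress protein, Sesn1 (sestrin 1) is a stress-induced restrainer of mTORC1, and Zmat3 is an RNA-binding zinc finger protein. Since mTORC1 is the complex that Tsc2 holds back and rapamycin blocks, sestrins join the 2 pathways.

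The binding site of p53 is a pair of 10-base half-sites. To show where such letters lie beside these genes, promoter windows from RefSeq (GRCm38.p6, 250 bases before to 50 after a start) were searched for the p53 half-site consensus, which reads the same on both strands. Windows were present for 7 of the 10 genes, 11 windows in all, and 6 of these windows, 1 each for 6 genes, held a match, whereas 8.36% of all 32851 windows and 9.55% of all 27025 genes did. The match is shown in capitals, 5′ to 3′ on the strand of the gene, with 15 bases on either side.
Trp53, chr11:69580269-69580308, plus strand: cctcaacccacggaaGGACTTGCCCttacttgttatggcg
Mdm2, chr10:117710920-117710959, minus strand: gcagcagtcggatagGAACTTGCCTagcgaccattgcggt
Cdkn1a, chr17:29090891-29090952, plus strand: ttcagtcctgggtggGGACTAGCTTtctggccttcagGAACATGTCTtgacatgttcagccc
Ccng1, chr11:40755447-40755486, minus strand: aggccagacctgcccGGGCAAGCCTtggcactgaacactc
Bax, chr7:45467075-45467114, minus strand: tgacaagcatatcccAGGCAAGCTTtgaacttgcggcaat
Sesn1, chr10:41887251-41887290, plus strand: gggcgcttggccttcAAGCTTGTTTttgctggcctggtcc
The Cdkn1a window holds 2 matches, the first base of which lies 73 and 51 bases before the start. They do not adjoin. The 10 bases right after the second match miss the consensus only at their first base and so stay in lower case. Bbc3 had no match in its 3 windows. Such a match describes letters in a window and is no evidence that p53 was bound there.

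The libraries held between 22887020 and 37505004 estimated counts, so 3 counts of a library amount to at most 1.31e-05% of it. Intervals cover counting error only. The kidney libraries carried kidney markers (Cdh1 at 101 to 128 TPM and Krt8 at 539 to 990 TPM, with 7 of 10 at 1 TPM or more in each), although Cldn7 was listed at 0 and Epcam at no more than 0.0268 TPM. Col1a1, Col1a2 and Col3a1 marked both MEF libraries at 274 to 996 TPM and were at most 1.07 TPM in the kidney libraries. Of the 10 fibroblast markers 8 were lower in all kidney libraries, but Vim was higher there (3609 to 7523 TPM against 1118 and 3522 TPM in the MEFs). The libraries labelled for a lack of Tsc2 still listed Tsc2, at 10.5 TPM in Tsc2-/- MEFs against 22.6 TPM in Tsc2+/+ MEFs. In MKOC and TJ it was at 49.1 and 44.0 TPM untreated and at 19.5 and 19.1 TPM with rapamycin. Its log2 change with rapamycin in CPM was -1.27 (SE 0.10, adjusted p = 2.28e-05 by edgeR).

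Trp53 RNA was present in both p53-/- MEF libraries. Trp53 (GRCm38 chromosome 11, 69580359 to 69591873, plus strand) stood at 26.3 TPM in Tsc2+/+ MEFs (95% counting interval 25.0 to 27.7) and 28.5 TPM in Tsc2-/- MEFs (26.6 to 30.7). It stood at 149 TPM in untreated MKOC, 121 TPM in rapamycin-treated MKOC, 136 TPM in untreated TJ and 128 TPM in rapamycin-treated TJ. The 4 kidney libraries lay above both MEF libraries, by 4.24 to 5.65 times for any pair, and their mean was 4.87 times the MEF mean. Within the kidney lines the order from high to low was untreated MKOC, untreated TJ, treated TJ and treated MKOC, and counting intervals overlapped between the last 3 neighbours, at 132 to 141 TPM for untreated TJ, 124 to 132 TPM for treated TJ and 117 to 126 TPM for treated MKOC. Between the MEFs the order depended on the scale, since CPM, the counts scaled to the size of the library and not to transcript length, were 37.8 in Tsc2+/+ and 30.9 in Tsc2-/- MEFs. An RNA level does not say whether protein is made, and the deposited table has no counts per exon.

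**Figure D1:**
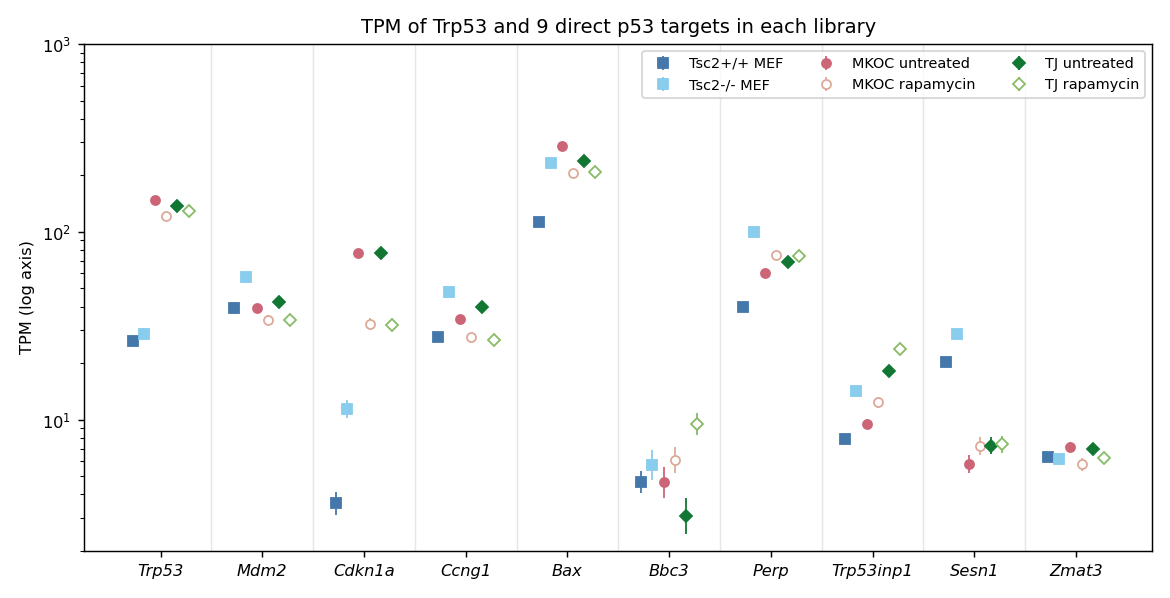
TPM on a log axis (y) of the 10 genes (x) in each of the 6 libraries, with 95% counting intervals as bars. Trp53 and Cdkn1a are higher in all 4 kidney libraries than in both MEF libraries, Sesn1 is lower, and the other 7 genes overlap.

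Trp53 has 6 transcripts in the deposited table, and each has the same length in GENCODE M21. They were joined into 4 forms, a grouping made after their values were seen. ENSMUST00000005371 and ENSMUST00000108658 are spliced over 11 exons and differ by 1 base at the 3′ end, so that the split of reads between them carries little information. ENSMUST00000108657 and ENSMUST00000171247 are spliced the same way but begin exon 11 96 bases earlier, which changes the C-terminal end and shortens the annotated protein from 387 to 378 residues. ENSMUST00000147512 keeps introns 4, 6, 7 and 8 whole and 643 of the 793 bases of intron 9, and ENSMUST00000130540 is a short transcript of 3 exons. The annotation calls the last 2 processed transcripts, with no protein assigned. The junctions that define the intron-retaining form and the longer exon 11 are printed because the results below turn on them. In the first, capitals are the start of intron 4 that the intron-retaining form keeps. In the second, capitals are the coding part that only the longer exon 11 supplies, with its stop codon, after the last 30 bases of exon 10. They were read from GENCODE M21 transcripts (GRCm38, plus strand).
Exon 4 into intron 4, chr11:69587593-69587672: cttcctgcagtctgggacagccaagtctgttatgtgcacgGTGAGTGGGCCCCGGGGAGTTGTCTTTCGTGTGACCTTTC
Exon 10 into the longer exon 11 (capitals, chr11:69591254-69591308): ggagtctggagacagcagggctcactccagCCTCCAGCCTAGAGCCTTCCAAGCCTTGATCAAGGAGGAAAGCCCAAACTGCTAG

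**Figure D2:**
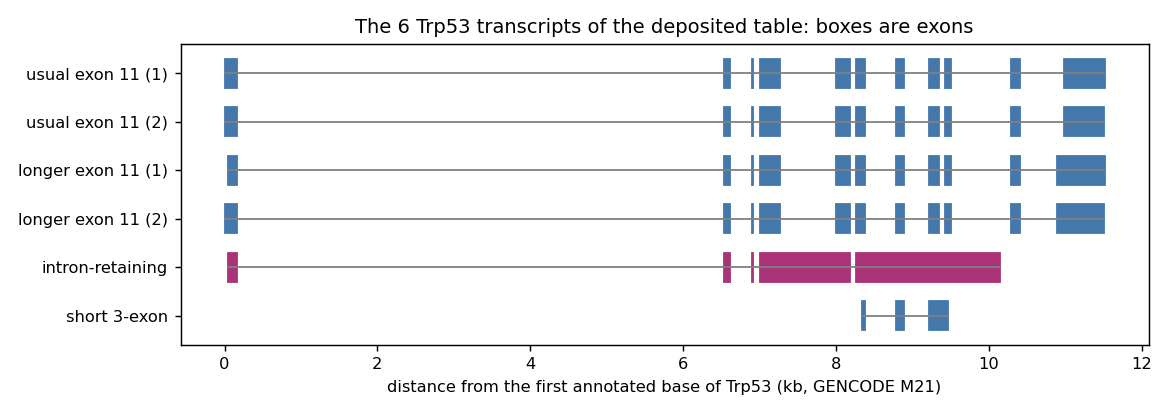
Exons (boxes) of the 6 Trp53 transcripts along the gene, with distance from the first annotated base in kb (x). The intron-retaining transcript joins exons 4 to 5 and 6 to 9 into 2 long boxes and ends before exon 10.

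The spliced forms made up the difference between kidney lines and MEFs, and the intron-retaining transcript went the other way. ENSMUST00000005371 was at 10.02 TPM in Tsc2+/+ MEFs, 4.89 in Tsc2-/- MEFs, 55.4 and 46.0 in untreated and treated MKOC, and 39.4 and 63.0 in untreated and treated TJ. In the same order ENSMUST00000108658 was at 3.50, 10.1, 72.3, 48.9, 78.9 and 45.3 TPM. These swings between near-identical transcripts cancel in their sum, which was 13.52 and 14.98 TPM in the MEFs and 94.9 to 128 TPM in the kidney lines. ENSMUST00000108657 was at 4.98, 5.13, 18.4, 22.9, 15.6 and 18.3 TPM. ENSMUST00000171247 had at most 0.262 estimated counts in any library, under the floor of 3 counts. All spliced forms together were 18.5 and 20.1 TPM in the MEFs against 118 to 146 TPM in the kidney lines, between 5.86 and 7.89 times higher for any pair. ENSMUST00000147512, the intron-retaining transcript, was at 4.81 and 4.79 TPM in the MEFs but 1.46, 2.19, 1.97 and 1.55 TPM in the kidney lines. Here the MEFs were the higher group, by 2.18 to 3.30 times. ENSMUST00000130540 was at 2.99 and 3.63 TPM in the MEFs and 0.153 to 1.08 TPM in the kidney lines, but its estimated counts were at most 19.4.

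As a share of the Trp53 counts, the intron-retaining transcript took 33.0% (Wilson 95% interval 30.6 to 35.5) in Tsc2+/+ and 31.0% (27.7 to 34.4) in Tsc2-/- MEFs. It took 1.90% and 3.47% in untreated and treated MKOC, and 2.77% and 2.32% in untreated and treated TJ. A long transcript yields more counts per molecule, and as a share of Trp53 TPM, which is corrected for length, it was 18.3% and 16.8% in the MEFs and 0.982% to 1.81% in the kidney lines. On both scales the MEFs and kidney lines did not overlap, and the count shares of the 2 MEF libraries were within each other's intervals. Over all genes, transcripts annotated as processed transcripts, the class of this one, took 1.55% to 1.96% of counts, and those annotated as retained introns 1.84% to 2.20%. Over 5321 genes that have a coding and a non-coding (retained intron or processed) transcript and at least 100 counts in every library, the median non-coding share was 2.02% to 2.49%. Both MEF libraries lay above all 4 kidney libraries for 744 of these genes (14.0%). The Trp53 gap between the lower MEF and the highest kidney library, 29.1 percentage points, was reached by 4 of the 5321 genes, which are Slx1b (53.5 points), Fgd4 (48.5 points), Nrip2 (34.1 points) and Trp53 itself. This ranking was made, and these genes named, after the Trp53 values were seen. Kallisto divides reads among whole annotated transcripts, so these shares hold only as far as the annotation describes the Trp53 alleles of each line, which the labels do not specify.

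**Figure D3:**
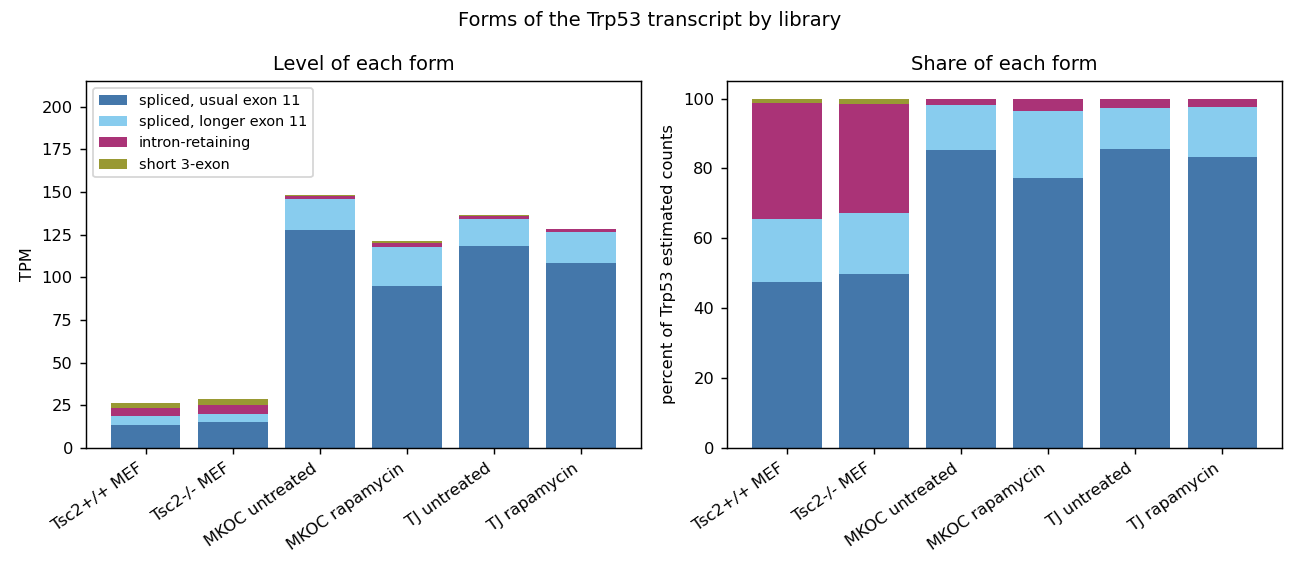
Trp53 forms by library as TPM (left) and as percent of Trp53 estimated counts (right). The intron-retaining form fills 33.0% and 31.0% of the MEF bars on the right and 1.90% to 3.47% of the kidney bars.

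The longer exon 11 took 27.6% (24.8 to 30.5) and 26.1% (22.5 to 30.1) of the spliced Trp53 counts in the Tsc2+/+ and Tsc2-/- MEFs. In MKOC it took 12.9% (12 to 13.9) untreated and 20.0% (18.5 to 21.4) with rapamycin. In TJ it took 11.96% (10.98 to 13.03) untreated and 14.8% (13.7 to 16.0) with rapamycin. Both MEF libraries were above all kidney libraries, and within each kidney line the rapamycin library was higher. The counting intervals did not overlap, but they take every spliced read as informative. The 2 forms differ mainly in the 96 bases added to exon 11, so these intervals are too narrow. With 2 lines the change with rapamycin was not tested.

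Among the 9 targets, Cdkn1a and Sesn1 set kidney lines and MEFs apart in opposite directions. Cdkn1a was at 3.58 TPM (3.11 to 4.12) in Tsc2+/+ MEFs, 11.4 (10.2 to 12.8) in Tsc2-/- MEFs, 77.3 and 32.4 in untreated and treated MKOC, and 77.0 and 32.1 in untreated and treated TJ. Every kidney library was above every MEF library, by 2.81 to 21.6 times, and the lines agree within sampling noise at each treatment. Sesn1 was at 20.3 and 28.6 TPM in the MEFs, 5.80 and 7.27 TPM in MKOC and 7.28 and 7.41 TPM in TJ. The MEFs were above every kidney library, by at least 2.74 times for any pair.

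Together with Trp53, 2 of the 10 genes were higher in all kidney libraries and 1 was lower. The background is large, since 26.8% of 13913 genes were higher in all 4 kidney libraries than in both MEF libraries and 21.4% were lower, so these counts are no result about the 10 genes. The other 7 overlapped. In TPM, Mdm2 ranged from 34.0 to 57.7, Ccng1 from 26.5 to 47.7, Bax from 113 to 286, Bbc3 from 3.06 to 9.52, Perp from 39.7 to 99.2, Trp53inp1 from 7.91 to 23.7 and Zmat3 from 5.78 to 7.12 over all libraries. In CPM, Mdm2 was also lower in every kidney library than in both MEF libraries. Cell type, culture and p53 label cannot be told apart in this comparison. The Tsc2-/- MEFs and the kidney lines all lack Tsc2 by label, and Cdkn1a in the Tsc2-/- MEFs lay between its levels in the Tsc2+/+ MEFs and the kidney lines. In bulk RNA, fewer cells with a transcript and less of it per cell cannot be told apart either.

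Cdkn1a and Sesn1 each have alternative starts. Nearly all Cdkn1a counts (99.4% to 100%) went to ENSMUST00000023829, which starts 2790 bases downstream of the start whose window holds the half-sites printed above. The Sesn1 starts of the RefSeq windows are 76865 bases apart. ENSMUST00000041438, which begins at the downstream one, whose window holds the Sesn1 half-site, took 25.2% (23.3 to 27.3) and 33.2% (30.6 to 35.9) of Sesn1 counts in Tsc2+/+ and Tsc2-/- MEFs. In MKOC its share was 18.6% (14.8 to 23.1) untreated and 24.1% (19.8 to 29.1) with rapamycin, and in TJ 31.0% (26.5 to 35.9) and 44.1% (39.0 to 49.2). The share was higher with rapamycin in both lines, and only the TJ intervals do not overlap. Ccng1, Bax and Perp each drew at least 99.87% of their counts from 1 transcript. The leading transcript took 68.1% to 83.1% of counts for Mdm2, 73.0% to 96.5% for Bbc3, 29.7% to 65.8% for Trp53inp1 and 34.7% to 99.5% for Zmat3, so the TPM of these 4 genes also rests on how reads were divided.

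With rapamycin 3 of the 10 genes fell and 2 rose in the kidney lines (edgeR, quasi-likelihood F-test, p-values adjusted after Benjamini and Hochberg over 12952 genes, line as covariate). Of all genes tested, 17.4% were called lower and 17.5% higher, so 5 called genes of 10 are set against 4526 of 12952. The median log2 change was -0.18 over the 10 genes and 0.02 over all genes.

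Cdkn1a fell most, from 77.3 to 32.4 TPM in MKOC and from 77.0 to 32.1 TPM in TJ. Its log2 change in CPM was -1.27 (SE 0.11, adjusted p = 3.06e-05), with -1.26 in MKOC and -1.28 in TJ alone. Only 1.64% of the genes tested had a lower log2 change. Ccng1 went from 34.3 to 27.5 TPM in MKOC and from 39.96 to 26.54 TPM in TJ, a log2 change in CPM of -0.46 (SE 0.11, adjusted p = 0.0101), with -0.33 in MKOC and -0.60 in TJ alone. Bax went from 286 to 206 TPM in MKOC and from 238 to 208 TPM in TJ, a log2 change in CPM of -0.34 (SE 0.11, adjusted p = 0.0355), with -0.47 in MKOC and -0.20 in TJ alone. In each of these genes both treated libraries lay below both untreated libraries.

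Bbc3, pro-apoptotic like Bax, moved the other way. It went from 4.64 to 6.12 TPM in MKOC and from 3.06 to 9.52 TPM in TJ, and in CPM from 3.56 to 6.51 and from 2.93 to 7.92. The log2 change in CPM was 1.11 (SE 0.24, adjusted p = 0.00538), with 0.83 in MKOC and 1.39 in TJ. Bbc3 was thinly covered, with 79 to 210 estimated counts per library. Its TPM in a line also depended on a short retained-intron transcript, which took 25.1% of Bbc3 counts in untreated and 3.50% in treated MKOC, but 10.6% in untreated and 23.9% in treated TJ. The main coding transcript went from 2.38 to 5.64 TPM in MKOC and from 2.396 to 5.36 TPM in TJ. Trp53inp1 went from 9.47 to 12.3 TPM in MKOC and from 18.2 to 23.7 TPM in TJ, a log2 change in CPM of 0.37 (SE 0.11, adjusted p = 0.0236), with 0.38 in MKOC and 0.36 in TJ alone. In TJ the processed transcript ENSMUST00000132010 went from 5.85 to 11.4 TPM and the leading coding transcript from 10.4 to 9.55 TPM, while in MKOC they went from 4.42 to 5.58 and from 4.68 to 6.32 TPM. For the gene as a whole the lines differed more than the treatment did, since treated MKOC stayed below untreated TJ.

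The other 5 genes did not pass by the same edgeR test. The log2 change in CPM was -0.19 (SE 0.10, adjusted p = 0.164) for Trp53, -0.23 (SE 0.12, adjusted p = 0.173) for Mdm2 and -0.17 (SE 0.11, adjusted p = 0.265) for Zmat3. It was 0.21 (SE 0.11, adjusted p = 0.164) for Perp and 0.14 (SE 0.15, adjusted p = 0.525) for Sesn1. The lines had the same sign for 9 of the 10 genes, as for 77.4% of all genes tested, so this count is no result about the 10 genes. Sesn1 was the exception, with 0.30 in MKOC and -0.02 in TJ, and Mdm2 was uneven, with -0.04 in MKOC and -0.41 in TJ. The Mdm2 transcript ENSMUST00000155285, annotated for nonsense-mediated decay, went from 275 to 35.2 estimated counts in TJ and from 237 to 264 in MKOC. The leading coding transcript of Mdm2 went from 25.9 to 21.9 TPM in TJ and from 20.5 to 19.1 TPM in MKOC. The difference between lines could not be tested with 1 library for each line and treatment.

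Some cell type markers moved with the treatment. By edgeR 3 of 8 fibroblast markers tested and 3 of 7 kidney epithelial markers were higher with rapamycin, against 17.5% of all genes. The fibroblast markers summed to 4767 and 3728 TPM in untreated and 7669 and 5463 TPM in treated MKOC and TJ, with Vim at 4676 and 3609 TPM untreated and 7523 and 5292 TPM treated. The kidney epithelial markers summed to 1461 and 1677 TPM untreated and 2109 and 2502 TPM treated. Of the mesothelial and leukocyte markers 1 of 2 tested in each list was higher, and of the endothelial markers 0 of 3. In each marker list 0 were called lower, against 17.4% of all genes. The endothelial markers summed to 4.34 and 2.17 TPM untreated and 3.96 and 2.22 TPM treated. The part of these shifts in the levels of the 10 genes was not tested.

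The calls for Bax and Trp53inp1 were lost with DESeq2 (adjusted p = 0.0691 and 0.0947) and with limma on log2(TPM + 1) (adjusted p = 0.0548 and 0.0938). Without the line term, only Cdkn1a passed (adjusted p = 0.0111). In fits that left out 1 kidney library and the line term, Cdkn1a passed without treated MKOC (adjusted p = 0.0197) and without treated TJ (adjusted p = 0.0194), but not without untreated MKOC (adjusted p = 0.0529) or untreated TJ (adjusted p = 0.078), and no other of the 10 genes passed in any of them.

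**Figure D4:**
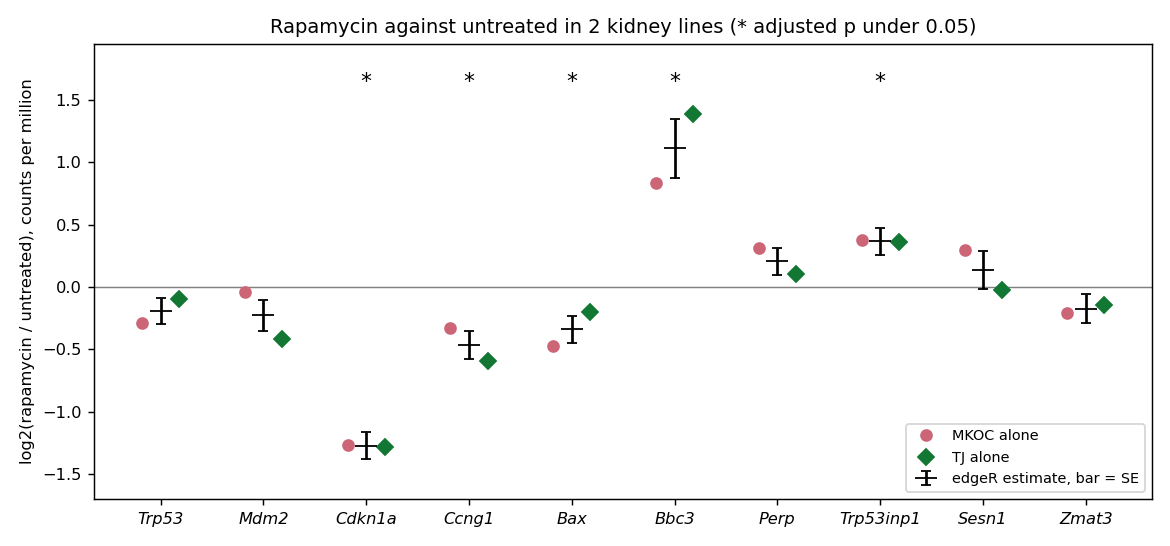
Log2 ratio of rapamycin to untreated in CPM (y) for the 10 genes (x), as the edgeR estimate with its SE and in each line alone. Cdkn1a sits near -1.27 in both lines, Bbc3 at 0.83 and 1.39, and stars mark the 5 genes that passed.

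Between the kidney lines at the same treatment, Trp53inp1 was the gene furthest apart, 1.84 times higher in TJ untreated and 1.85 times with rapamycin, on the TPM + 1 scale. None of the 10 genes was 2-fold apart at both treatments, where 0.959% of 12414 genes were 2-fold higher in TJ and 0.314% lower. For Cdkn1a the TJ to MKOC ratio was 0.996 untreated and 0.989 with rapamycin. Bbc3 was lower in TJ untreated (0.721 times) and higher with rapamycin (1.48 times), but both CPM intervals include no difference.

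Between the MEFs, 9 of the 10 genes had more TPM in Tsc2-/- than in Tsc2+/+ cells, but so did genes in general. The median ratio of the 7377 genes with at least 10 TPM in both libraries was 1.31, or 0.39 on the log2 scale. Transcripts under 300 bases took 20.9% of TPM in Tsc2+/+ MEFs and 7.12% in Tsc2-/- MEFs, which leaves a different remainder for all other transcripts. Without them the median log2 difference was 0.24, against 0.45 with them, over genes of at least 1 TPM in 1 library. Trp53 was then lower in Tsc2-/- MEFs (-0.11). At 2-fold on the TPM + 1 scale, Cdkn1a, Perp and Bax were higher and none was lower, against 25.2% of 12771 genes higher and 5.18% lower. After division by the median ratio these shares were 15.8% and 8.21%, and Cdkn1a was the 1 gene of the 10 that stayed past 2-fold. With 5 TPM added in place of 1, Cdkn1a was below 2-fold (log2 difference 0.94).

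Cdkn1a went from 3.58 to 11.4 TPM, a log2 difference of 1.44, or 1.09 relative to the median ratio. In CPM its log2 difference was 1.32 (exact 95% counting interval 1.05 to 1.58). Perp went from 39.7 to 99.2 TPM, 0.91 on the log2 scale relative to the median, and 0.95 (0.86 to 1.03) in CPM. Bax went from 113 to 231 TPM, 0.64 relative to the median, and 0.69 (0.60 to 0.77) in CPM. These genes were higher in Tsc2-/- MEFs on each scale used, in cells that both carry the p53-/- label.

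The next group was higher by less. Relative to the median, the log2 difference was 0.42 for Trp53inp1 (7.91 and 14.3 TPM), 0.40 for Ccng1 (27.5 and 47.7 TPM), 0.17 for Mdm2 (39.2 and 57.7 TPM) and 0.10 for Sesn1 (20.3 and 28.6 TPM). Relative to the median it was below 0 for Trp53 (-0.26), Zmat3 (-0.36, 6.32 and 6.19 TPM) and Bbc3 (-0.07, 4.65 and 5.72 TPM). In CPM, 6 of the 10 were higher by more than the counting interval, and Trp53 (-0.29) and Zmat3 (-0.38) were lower by more than it. The same held for 48.5% and 35.5% of 12771 genes, so these counts are no result about the 10 genes.

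Markers of mesothelium moved with this comparison. Their summed TPM was 2.71 in Tsc2+/+ and 534 in Tsc2-/- MEFs. Of the 8, 7 were at least 2-fold higher (Msln 2.57 and 60.6, Upk3b 0 and 154, Upk1b 0 and 71.9 TPM), against 25.2% of all genes. Of the 10 kidney epithelial markers, 2 were 2-fold higher, and their sum was 0.253 and 77.6 TPM, with the defining Cdh1, Epcam and Krt8 under 0.5 TPM in both libraries. Krt19, which both lists hold, was at 0.0506 and 55.6 TPM. Fibroblast markers summed to 7928 and 3990 TPM. Of the 10, 2 were at least 2-fold higher and 3 lower, against 25.2% and 5.18% of all genes. Their median log2 difference was 0.12, against 0.45 over all genes. Sums in the same order were for endothelial markers 0.953 and 3.75 TPM (Pecam1, Cdh5 and Kdr at most 1.23) and for leukocyte markers 1.75 and 8.90 TPM (Ptprc at most 0.0732, Adgre1 at 0 and Cd68 at 1.69 and 6.78). The part of these differences in the levels of the 10 genes was not tested.

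**Figure D5:**
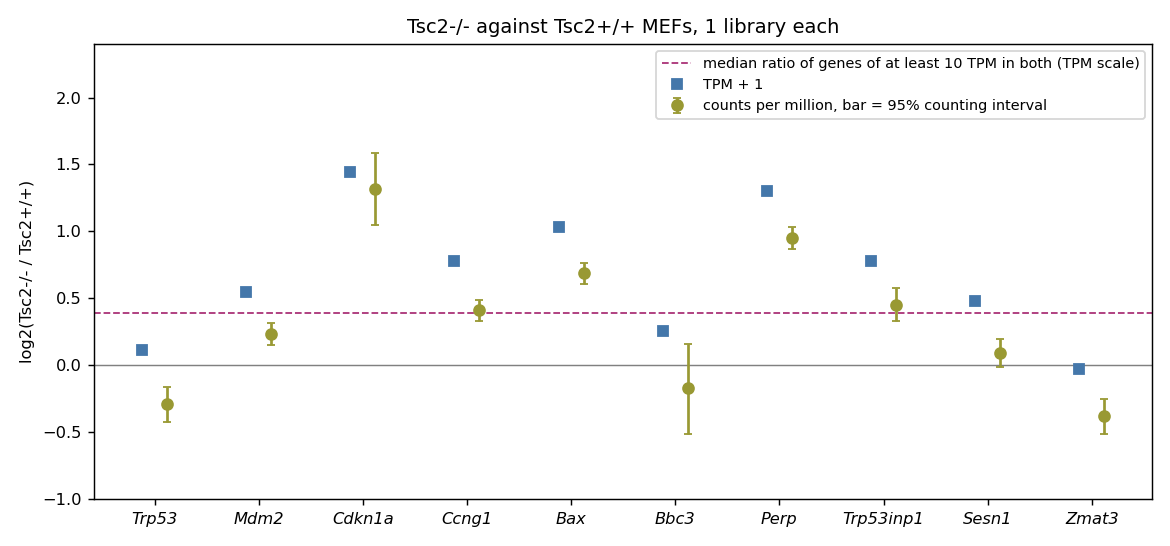
Log2 ratio of Tsc2-/- to Tsc2+/+ MEFs (y) for the 10 genes (x) as TPM + 1 and as CPM with 95% counting intervals, the dashed line being the median ratio of 1.31 (0.39 in log2). On the TPM + 1 scale 7 of the 10 genes stand above the line, with Cdkn1a, Perp and Bax furthest. Trp53, Zmat3 and Bbc3 are below 0 in CPM, the Bbc3 interval including 0.

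A wider list of 30 other p53 targets was read beside these. With rapamycin, edgeR called 6 of the 30 higher and 8 lower, with a median log2 change of 0.02, against 17.5% and 17.4% of all genes. The largest falls on the log2 CPM scale were Eda2r, a receptor of the TNF receptor family (-1.93, SE 0.39), Gadd45a, a growth arrest and DNA damage gene (-1.43, SE 0.11), and Sesn2, the sister of Sesn1 (-1.40, SE 0.14). Eda2r was low, going from 0.713 to 0.285 TPM in MKOC and from 1.12 to 0.278 TPM in TJ. Gadd45a went from 200 to 69.4 TPM in MKOC and from 258 to 105 TPM in TJ, and Sesn2 from 17.2 to 7.80 and from 24.3 to 7.88 TPM. The largest rises were Fas, the death receptor (1.69, SE 0.22), Plk2, a polo-like kinase (1.15, SE 0.15), and Btg2, an antiproliferative factor (0.76, SE 0.25). Adjusted p was at most 0.0351 for these 6 genes. Fas went from 2.15 to 9.25 TPM in MKOC and from 6.50 to 18.3 TPM in TJ.

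In the MEFs, 29 of the 30 had 1 TPM in a library, of which 8 were at least 2-fold higher in Tsc2-/- cells and 2 lower, with a median log2 difference of 0.61 against 0.45 over all genes. Over all genes 25.2% were higher and 5.18% lower. Pmaip1, the apoptosis gene known as Noxa, was at 0.0645 TPM (5 estimated counts) in Tsc2+/+ and 28.1 TPM in Tsc2-/- MEFs. Btg2 was at 0.447 and 15.1 TPM and Tigar, a regulator of glycolysis, at 6.45 and 26.8 TPM. Eda2r (24.7 and 5.99 TPM) and Fas (40.6 and 13.0 TPM) were lower. In the kidney lines 10 of the 30 were above and 6 below both MEF libraries, against 26.8% and 21.4% of all genes.

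Among 23 regulators and relatives of p53, 22 were tested with rapamycin, and edgeR called 4 higher and 5 lower, with a median log2 change of -0.06, against 17.5% and 17.4% of all genes. The checkpoint kinases Chek2 (-0.54, SE 0.11) and Chek1 (-0.52, SE 0.13) and the ubiquitin ligase Rchy1 (-0.43, SE 0.10) fell. The acetyltransferases Ep300 (0.52, SE 0.12) and Crebbp (0.43, SE 0.11) rose, as did Trp63, the relative of Trp53, which reached only 0.855 TPM in MKOC and 1.5 TPM in TJ. Adjusted p was at most 0.0123 for these 6 genes. In the MEFs 5 of 21 were at least 2-fold higher in Tsc2-/- cells and 1 lower, near the 25.2% and 5.18% of all genes. Hipk2, a p53 kinase, was at 6.83 and 27.7 TPM, and Ppp1r13l, an inhibitor of p53, at 1.07 and 5.36 TPM. Atr, the damage kinase, was at 16.2 and 7.60 TPM. Of 22 with 1 TPM in a library, 7 were above and 4 below in all kidney libraries, against 26.8% and 21.4% of all genes.

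Wrap53 lies head to head with Trp53 on the opposite strand (chromosome 11, 69561758 to 69580255). It did not follow Trp53 between the MEFs, or between MEFs and kidney lines. It was at 8.67 TPM in Tsc2+/+ MEFs, 24.3 in Tsc2-/- MEFs, 19.8 and 13.9 in untreated and treated MKOC, and 17.9 and 15.8 in untreated and treated TJ. It was thus higher in Tsc2-/- MEFs, where Trp53 differed little in TPM, and overlapped between MEFs and kidney lines. Within the kidney lines its order was that of Trp53, from untreated MKOC as the highest to treated MKOC as the lowest. With rapamycin its log2 change in CPM was -0.40 (SE 0.14, adjusted p = 0.0467 by edgeR). The kit marks strand, but whether Kallisto used it is not given in the sources used here.

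By Pearson correlation of log2(TPM + 1) over the 6 libraries, among 10115 genes of at least 10 TPM in 1 library, the genes most like Trp53 were Dmd, Prodh, Tpd52, Chka and Rpl29 (r = 0.998 to 0.999). For Cdkn1a they were Rchy1, Cstf1 and Snx25 (r = 0.998 to 0.999), and for Mdm2 Zfp609, Rars and Acyp2 (r = 0.994 to 0.997). The points share libraries and cell types, and 86 genes passed 0.99 with Trp53, so the coefficient alone singles out no gene. Rpl29, for example, was at 125 and 129 TPM in the MEFs and 936 to 1135 TPM in the kidney lines.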

How the data were processed

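RNA was poly(A)-selected and sequenced as stranded 100 bp paired-end reads. The authors trimmed reads with Trimmomatic and ran Kallisto, and deposited estimated counts and TPM per transcript. The study's methods name a human reference, while the identifiers are those of mouse Ensembl transcripts, of which 86031 are in GENCODE M21 (GRCm38). A second deposited table holds the authors' fold change per transcript, a ratio of TPM between MEFs, and was used only for its symbols. Transcripts with no symbol (1006, at most 0.468% of counts) entered no gene sum, and 8 transcripts with 2 symbols kept the first.

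Counts and TPM were summed per symbol. Depth was 22887020 to 37505004 estimated counts, which were rounded for edgeR 4.0.16 (R 4.3.3; filterByExpr, TMM, quasi-likelihood F-test, line as covariate, adjusted p limit 0.05). This step was tested on simulated data. Differences without replicates were taken as log2 ratios with a pseudocount of 1 TPM and called at 2-fold. Shares have Wilson 95% intervals, and count ratios exact conditional ones. Kidney samples were paired by line. Deviations of the same line from the treatment means correlated at 0.52 over 12952 genes. DESeq2 1.42.0 and limma 3.58.1 were alternatives.

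The 10 genes and all lists were chosen with earlier results of these data known. Genes named are the 10 genes, Tsc2, Wrap53, the 3 largest calls each way in each p53 list, the first 3 markers of each marker list and the genes most like Trp53, Cdkn1a and Mdm2, and exceptions, named after their values were seen, are Vim, Krt19, Cldn7 and the 3 genes beside Trp53 for their non-coding share.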

Additional observations from a re-analysis of the deposited data

How the results depend on the processing

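The rapamycin counts depend on how the lines are treated. The 10-gene count of 5 (2 higher, 3 lower) held with RLE size factors, where 34.2% of all genes were called, and with no filter on low counts, where 25.4% were. DESeq2 and limma on log2(TPM + 1) each called 3 (1 higher, 2 lower). Of all genes DESeq2 called 3044 (25.1%; 1394 higher, 1650 lower) and limma 3632 (28.04%; 1799 higher, 1833 lower). With no replicate block, 1275 of all genes passed (559 higher, 716 lower), and of the 10 genes 1 passed (0 higher, 1 lower; 4 at an unadjusted p under 0.05), so the pairing by line changes the call for Ccng1, Bax, Bbc3 and Trp53inp1. Leaving out 1 kidney library, with no line term, gave 96 of all genes without untreated MKOC (36 higher, 60 lower), 613 without treated MKOC (322 higher, 291 lower), 531 without treated TJ (285 higher, 246 lower) and 0 without untreated TJ, and 0 to 1 of the 10 genes. By edgeR at an unadjusted p under 0.05, the fit without untreated TJ had 2688 genes, and 3 of the 10, and the lone sample left in a group is assumed to vary like the others. Trp53inp1 ranged from -0.093 to 0.84 in these fits and was below 0 without treated TJ. These fits do not set the lines apart, and untreated Trp53inp1 was 1.84 times higher in TJ than in MKOC. Its change in each line alone was 0.38 in MKOC and 0.36 in TJ. In 1 line alone no called gene changed sign, and Bax moved from -0.34 to -0.20 without MKOC. In the MEFs the count at 2-fold was 3. It was 2 without transcripts under 300 bases (Cdkn1a and Perp), where 19.9% of all genes were 2-fold higher. It was 1 after scaling by the median ratio or in CPM, where 15.8% and 17.2% of all genes were 2-fold higher. The kidney libraries were above both MEF libraries for 4 of the 10 genes, and below for 2, when only untreated libraries were used, against 33.9% and 27.5% of all genes. They were below for 2 in CPM, after median scaling or without transcripts under 300 bases, against 25.03% to 26.7% of all genes. As a share of TPM, which weighs short transcripts more, the intron-retaining form took 18.3% and 16.8% in Tsc2+/+ and Tsc2-/- MEFs, 0.982% and 1.81% in untreated and treated MKOC, and 1.44% and 1.21% in untreated and treated TJ. No count for TJ against MKOC changed under its 5 alternatives. Low counts limit Bbc3 and the rarer Trp53 transcripts.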
